A study of Mus musculus with 6 samples.

Results

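Levels of 45 genes of striated muscle were followed through the sequencing of MC3T3-E1 cells after knockdown of Hdac4. They encode the sarcomere, the creatine kinases, the acetylcholine receptor of the muscle membrane with its partner kinase MuSK, and proteins of calcium release and of the membrane. The 45 genes were found by gene symbol among the 53801 Ensembl genes of the deposited tables, and each symbol matched 1 gene. The list was chosen by function with earlier results of the same comparison, Control against Hdac4-knockdown, in view, so the differences between the groups are given as a description, with no p-value for a gene of the list, and they support nothing about the list.

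MC3T3-E1 is a mouse pre-osteoblast line. Control cells carried a lentivirus with a scrambled non-silencing RNA, and Hdac4-knockdown cells carried the same vector with a short hairpin RNA against Hdac4. Stably infected cells of both groups were selected with 5 μg/ml puromycin for 7 days, and both vectors express ZsGreen1 and puromycin resistance. Poly-A RNA of 3 samples per group was sequenced. The study describes them as biological replicates and the labels as independent RNA samples, without saying whether they came from separate infections.

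In a striated muscle fibre, thick filaments of myosin slide along thin filaments of actin, which are held at the Z-disc by alpha-actinin and lined by nebulin. A nerve signal opens the acetylcholine receptor in the fibre membrane, the depolarization releases calcium through the ryanodine receptor, and calcium binding to troponin lets myosin pull. Myoblasts assemble these parts as they fuse into myotubes, under the control of the MyoD family, which binds E-boxes, and of MEF2 factors. Hdac4 is a class IIa histone deacetylase, a group known for binding MEF2 factors and holding back muscle genes. Pre-osteoblasts are not known as a source of sarcomeres.

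Promoters of receptor subunits and of the striated actins are shown for the motifs of muscle factors that they hold. Of the 45 genes, Chrna1 and Acta1 had the highest Control levels per kb of exon, while Chrng and Actc1 lay far lower. RefSeq promoter windows, 250 bases before to 50 bases after the annotated start, were held for 38 of the 45 genes, in 44 windows. All are written from 5′ to 3′ on the strand of the gene, with GRCm38.p6 positions. The first 3 belong to receptor subunits, and the capitals mark E-boxes, which have the letters CANNTG: Chrna1 (chr2:73580289-73580588, minus strand), Chrnb1 (chr11:69795888-69796187, minus strand) and Chrng (chr1:87205561-87205860, plus strand).
Chrna1: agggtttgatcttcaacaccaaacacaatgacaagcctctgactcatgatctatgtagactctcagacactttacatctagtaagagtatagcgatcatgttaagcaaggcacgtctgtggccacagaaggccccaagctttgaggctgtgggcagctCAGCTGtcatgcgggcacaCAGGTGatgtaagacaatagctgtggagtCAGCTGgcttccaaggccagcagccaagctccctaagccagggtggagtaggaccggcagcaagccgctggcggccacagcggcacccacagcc
Chrnb1: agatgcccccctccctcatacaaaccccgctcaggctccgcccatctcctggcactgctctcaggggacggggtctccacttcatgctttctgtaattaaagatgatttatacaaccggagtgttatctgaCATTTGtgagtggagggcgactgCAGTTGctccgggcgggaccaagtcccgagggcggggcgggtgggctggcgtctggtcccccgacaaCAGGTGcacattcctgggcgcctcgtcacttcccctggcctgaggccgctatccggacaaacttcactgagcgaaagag
Chrng: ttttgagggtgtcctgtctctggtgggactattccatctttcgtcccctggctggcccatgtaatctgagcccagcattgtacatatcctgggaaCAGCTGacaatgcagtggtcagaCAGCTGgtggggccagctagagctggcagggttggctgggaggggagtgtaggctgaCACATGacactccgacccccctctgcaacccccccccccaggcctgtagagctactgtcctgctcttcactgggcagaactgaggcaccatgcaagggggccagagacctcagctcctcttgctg
The Chrna1 window holds 3 E-boxes, which begin 92, 73 and 44 bases before the start. Those of Chrnb1 begin 119, 96 and 29 bases before it, and those of Chrng 155, 132 and 75 bases before it. The next pair belongs to the striated actins, and the capitals mark a CArG box, the letters read by serum response factor: Acta1 (chr8:123894726-123895025, minus strand) and Actc1 (chr2:114052826-114053125, minus strand).
Acta1: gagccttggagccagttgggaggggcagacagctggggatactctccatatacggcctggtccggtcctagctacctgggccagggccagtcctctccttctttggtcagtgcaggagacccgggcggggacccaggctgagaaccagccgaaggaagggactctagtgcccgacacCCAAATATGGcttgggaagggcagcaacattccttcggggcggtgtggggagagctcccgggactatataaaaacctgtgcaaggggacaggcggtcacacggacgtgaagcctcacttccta
Actc1: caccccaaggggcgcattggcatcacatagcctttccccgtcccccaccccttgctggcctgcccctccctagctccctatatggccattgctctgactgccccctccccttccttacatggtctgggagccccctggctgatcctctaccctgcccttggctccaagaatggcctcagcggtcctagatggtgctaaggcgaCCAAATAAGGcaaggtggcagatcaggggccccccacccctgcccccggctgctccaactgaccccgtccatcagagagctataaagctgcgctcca
The box begins 73 bases before the start of Acta1 and 47 bases before that of Actc1.

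Over both strands, an E-box was found in 84.1% of the 44 windows and in 72.3% of all 32851 windows of the same length. CAGCTG, an E-box form that is counted in the E-boxes too, was found in 34.1% and 16.3%. M-CAT, the letters CATTCC read by TEAD factors, was found in 34.1% and 14.7%. A CArG box was found in 15.9% against 1.63%, in the genes Acta1, Actc1, Ldb3, Myh4, Myl3 and Myom1, and a MEF2 site in 13.6% against 3.19%, in Casq2, Ckb, Myh1, Myh4, Myh8 and Ttn. A match is only a run of letters in the window, and binding was not measured here.

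Knockdown was checked on Hdac4 itself, with 1243, 1204 and 1136 counts in the 3 Control libraries and 950, 927 and 887 in the Hdac4-knockdown libraries. Of its exon bases 22.4% are shared with another annotated gene. Its level fell to 73.7% of the Control level, a log2 fold change of -0.44 (SE 0.057), with an adjusted p of 8.98e-07 by edgeR's quasi-likelihood test. Levels are normalized counts (CPM, counts scaled to the same library size), and a gene was called when its edgeR adjusted p was below 0.05 and its log2 fold change was beyond 0.05 in size. By this rule 75.1% of the 14531 genes tested were called, 37.1% lower and 38% higher in Hdac4-knockdown, and their median log2 fold change was 0.014. The libraries held between 29096544 and 31651826 counts on genes, with at least 1 count for 19373 to 19797 genes in Control and for 22148 to 22640 in Hdac4-knockdown.

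The libraries went in part against the label of a pre-osteoblast line. Runx2, the factor that starts the osteoblast lineage, was present at 69.9 ± 4.64 CPM (SD, n = 3) in Control and 79.5 ± 5.67 CPM in Hdac4-knockdown. Alpl, the alkaline phosphatase of osteoblasts, had at most 3 counts in every library, and Ibsp had 0 in the 3 Control libraries. Sp7, an osteoblast transcription factor, was counted 4, 7 and 2 times in Control and 74, 112 and 68 times in Hdac4-knockdown. The level of Col1a1, the main bone collagen, was 338 ± 14.4 CPM in Control and 11010 ± 326 CPM in Hdac4-knockdown. The Control libraries also held markers of myoblasts. Myod1, the founding factor of the muscle lineage, stood at 67.9 ± 3.62 CPM and fell to 8.96 ± 0.835 CPM in Hdac4-knockdown, and Cdh15, the cadherin of myoblasts, fell from 295 ± 5.54 to 37.2 ± 1.13 CPM. Pax7, which marks muscle stem cells, was counted 28, 21 and 44 times in Control and 0, 1 and 0 times in Hdac4-knockdown. Of 11 myoblast and myotube markers, 10 were tested, 8 were called lower and 1, Pax3, higher. Among all genes tested 37.1% were called lower and 38% higher. The summed level of the 11 markers was 545 to 556 CPM in Control libraries and 184 to 200 CPM in Hdac4-knockdown libraries. No marker of this list was at 0 in every Control library. The Y-linked genes Ddx3y, Eif2s3y, Kdm5d and Uty had 0 to 3 counts in every Control library and 13 to 106 in every Hdac4-knockdown library, and Xist fell from 1201 ± 61.2 to 353 ± 39 CPM. Every library of a group shared these features, so the knockdown and a difference in the makeup of the cells cannot be told apart in any result that follows.

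RNA of the muscle set was present in Control libraries and fell in Hdac4-knockdown for most genes that could be tested. The summed level of the 45 genes was 758 to 781 CPM in the 3 Control libraries and 143 to 150 CPM in the 3 Hdac4-knockdown libraries, or 18.9% of the Control level. Chrna1 alone made up 30% of the sum in Control and 13.5% in Hdac4-knockdown. Without it the sums were 530 to 551 CPM and 122 to 130 CPM, or 23.3%. In bulk RNA, fewer muscle-like cells and less RNA per cell cannot be told apart.

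Of the 45 genes, 32 passed the filter on low counts and 13 did not. Of the 32, 30 were called lower, where 37.1% of all genes tested were, and none was called higher, where 38% were. By DESeq2 and limma-voom too, 0 members were called higher, which is no support, since the list was chosen on this comparison in the same libraries. In the same 30 genes every Hdac4-knockdown library lay below every Control library, a pattern seen in 38% of all genes tested, and in 1 gene, Sgca, every Hdac4-knockdown library lay above, as in 38.8% of all genes tested. Nothing is read from these shares, because the list was chosen on this comparison. The median log2 fold change of the 32 was -2.19 and ranged from -4.45 for Ckb to 0.56 for Hspb7. In Hdac4-knockdown 4 genes were left below 10% of their Control level, 11 stood at 10 to 20%, 11 at 20 to 30%, 2 at 30 to 50% and 2 at 50 to 100%, and 2 lay above 100%. Within a group the SD was a median of 6.92% of the mean in Control and 14.3% in Hdac4-knockdown over the same 32 genes. Myh7 had fewer than 10 counts in every Hdac4-knockdown library and passed the filter through the Control libraries.

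**Figure D1:**
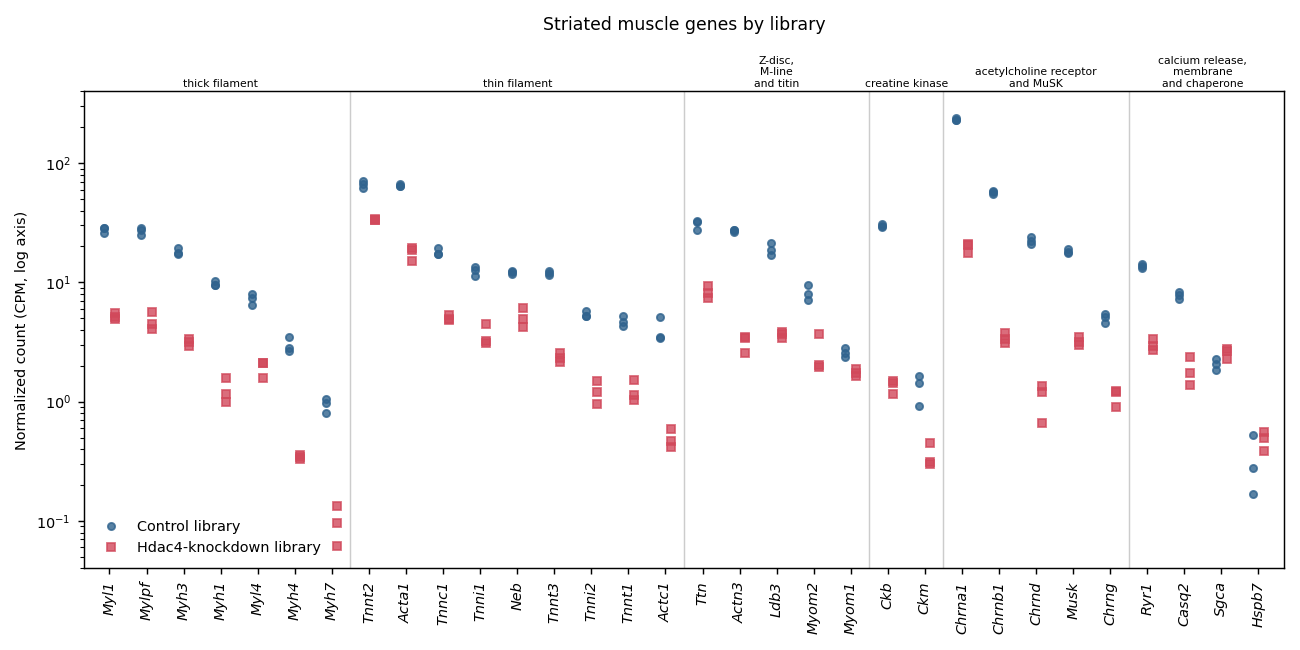
Normalized count (CPM, logarithmic axis) of the 32 tested genes in each library, grouped by role and ordered by Control level; circles are the 3 Control libraries and squares the 3 Hdac4-knockdown libraries. Circles lie above squares for every gene but Hspb7, whose groups overlap, and Sgca, whose squares begin where its circles end.

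In Control the acetylcholine receptor subunits and Musk had the highest summed level of the roles, and in Hdac4-knockdown the thin filament genes had, at 68.2 to 72.3 CPM. Chrna1, the subunit that binds acetylcholine, was at 229, 238 and 228 CPM in the Control libraries and at 17.8, 20.6 and 20.9 CPM in the Hdac4-knockdown libraries, which leaves a wide gap between the groups. Its mean fell from 232 ± 5.19 to 19.8 ± 1.69 CPM (SD, n = 3), to 8.52% of Control, a log2 fold change of -3.55 (SE 0.0567). Chrnb1, the beta subunit, was at 57.9, 55.2 and 57 CPM in Control and at 3.78, 3.38 and 3.12 CPM in Hdac4-knockdown, or 6.05%, a log2 fold change of -4.04 (SE 0.0802). Chrnd, the delta subunit, was at 21.2, 22.1 and 24.1 CPM in Control and at 1.36, 1.21 and 0.664 CPM in Hdac4-knockdown, or 4.8%, a log2 fold change of -4.37 (SE 0.147). These 3 subunits thus kept less than 10% of their Control level. Chrng, the gamma subunit of the fetal receptor, was at 5.4, 4.54 and 5.16 CPM in Control and at 1.2, 1.24 and 0.897 CPM in Hdac4-knockdown, or 22.1%, with a log2 fold change of -2.17 (SE 0.188).

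Chrnd and Chrng are neighbours on chromosome 1, 4.6 kb apart. Musk, the receptor tyrosine kinase that gathers the receptor under the nerve ending, was at 17.9, 17.7 and 18.9 CPM in Control and at 3.49, 3.17 and 2.99 CPM in Hdac4-knockdown, which is 17.7%. Together the 5 genes summed to 331 to 337 CPM in Control libraries and to 27.6 to 29.6 CPM in Hdac4-knockdown libraries.

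The makeup of the receptor RNA was compared on the scale of CPM per kb of exon, where levels of different genes can be set side by side. In Control, Chrna1 made up 63.4% ± 1.08 (SD, n = 3) of the summed subunits, Chrnb1 26.9% ± 0.815, Chrnd 8.19% ± 0.54 and Chrng 1.45% ± 0.135. Chrne, the epsilon subunit that replaces gamma in the adult receptor and is not in the list, made up 0.0234%, from 2, 1 and 0 counts. In Hdac4-knockdown the shares were 69.6% ± 4.45 for Chrna1, 21% ± 2.54 for Chrnb1, 5.08% ± 1.77 for Chrnd, 4.13% ± 0.686 for Chrng and 0.203% for Chrne. Chrne was counted 0, 0 and 2 times in these libraries, so its share rests on replicate 3 alone. RNA of the alpha subunit was therefore above that of the beta subunit in both groups, and RNA of the fetal gamma subunit was above that of epsilon in both. Subunit protein was not measured. The share of Chrng lay between 1.3% and 1.56% in Control libraries and between 3.34% and 4.59% in Hdac4-knockdown libraries, without overlap.

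Thick filament genes were measured in 14 members, of which 7 were tested and all 7 fell, with a median log2 fold change of -2.52. Myh3, the embryonic myosin heavy chain, was the leading heavy chain, at 17.6, 19.3 and 17.3 CPM in Control and 2.94, 3.35 and 3.16 CPM in Hdac4-knockdown, or 17.4%, a log2 fold change of -2.52 (SE 0.105). Myh1, the fast IIx chain, was at 10.2, 9.49 and 9.58 CPM in Control and at 1.16, 1.58 and 0.997 CPM in Hdac4-knockdown, or 12.8%. Myh4, the fast IIb chain, was at 3.47, 2.64 and 2.81 CPM and at 0.355, 0.341 and 0.332 CPM, or 11.5%. Libraries of the 2 groups did not overlap for any of these chains. Myh7, the slow chain, was counted 32, 29 and 23 times in Control and 3, 2 and 4 times in Hdac4-knockdown, or 10.3%, and its log2 fold change of -3.23 had the widest error of the fallen genes (SE 0.462).

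Myh2, the fast IIa chain, was counted 5, 8 and 14 times in Control and 0, 2 and 3 times in Hdac4-knockdown, and Myh8, the perinatal chain, 9, 8 and 12 times and 4, 6 and 7 times, so neither was tested. Myh6, the alpha chain of the heart, had at most 3 counts in any library. Myh3, Myh2, Myh1, Myh4 and Myh8 lie in 1 cluster of 230.3 kb on chromosome 11, and their coding sequences are alike, so reads that aligned to several of them were not counted and their levels are less certain. On the scale of CPM per kb, Myh3 made up 57.3% ± 2.54 of the sarcomeric heavy chains in Control and 64.1% ± 2.41 in Hdac4-knockdown, Myh1 29.6% ± 1.21 and 24% ± 3.88, and Myh4 9.49% ± 1.33 and 7.06% ± 0.722. An embryonic chain thus led in both groups, with fast chains next.

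Among the light chains, Myl1, the fast essential chain, was at 28.5, 28.8 and 26 CPM in Control and at 5.56, 4.96 and 5.08 CPM in Hdac4-knockdown, or 18.7%. Mylpf, the fast regulatory chain, was at 28.5, 27.3 and 25.2 CPM and at 4.07, 5.65 and 4.52 CPM, or 17.6%. Myl4, the essential chain of atrial and embryonic muscle, was at 8.02, 6.51 and 7.4 CPM and at 1.58, 2.11 and 2.09 CPM, or 26.4%. The 3 light chains fell with no overlap of the groups. The light chains of ventricle and slow muscle were at the floor, since Myl2 had 0 counts in every library and Myl3 at most 2. Of the myosin-binding proteins C, Mybpc1, the slow form, was counted 1, 5 and 7 times in Control and 1, 1 and 0 times in Hdac4-knockdown, and Mybpc2, the fast form, 2, 0 and 1 times and 2, 3 and 4 times. Neither was tested.

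Thin filament genes were 11, of which 9 were tested and all 9 fell, with a median log2 fold change of -1.86. Acta1, the actin of skeletal muscle, was at 67.3, 63.7 and 64 CPM in Control and at 15.2, 19.6 and 18.9 CPM in Hdac4-knockdown, or 27.5%, a log2 fold change of -1.86 (SE 0.0736). Actc1, the cardiac actin that embryonic skeletal muscle also makes, was at 3.5, 5.18 and 3.4 CPM in Control and at 0.42, 0.59 and 0.465 CPM in Hdac4-knockdown, or 12.2%, a log2 fold change of -3.02 (SE 0.26). The 2 actins have nearly the same coding sequence, so their division of reads is less certain.

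Tnnt2, the troponin T of heart and embryonic muscle, kept more of its level than any other thin filament gene tested. It was at 70.9, 66.5 and 61.7 CPM in Control and at 33.6, 33.5 and 33.8 CPM in Hdac4-knockdown, or 50.7%, a log2 fold change of -0.98 (SE 0.0575). Tnnt3, the fast form, was at 11.6, 12.5 and 12.1 CPM and at 2.17, 2.33 and 2.56 CPM, or 19.5%, a log2 fold change of -2.36 (SE 0.122). Tnnt1, the slow form, was at 4.32, 4.64 and 5.26 CPM and at 1.03, 1.15 and 1.53 CPM, or 26.1%. On the scale of CPM per kb, Tnnt2 made up 46.7% ± 2.75 of troponin T in Control and 68% ± 2.49 in Hdac4-knockdown, and Tnnt3 41.5% ± 1.63 and 23.2% ± 1.06. No Control library overlapped an Hdac4-knockdown library in either share. With the longest transcript as the length instead of the summed exons, the shares of Tnnt2 were 56% and 75.2%.

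RNA of troponin I, the inhibitory subunit, came from the slow and the fast gene in nearly equal parts in Control. Tnni1, the slow form, was at 13.4, 12.6 and 11.4 CPM in Control and at 3.2, 4.47 and 3.12 CPM in Hdac4-knockdown, or 28.8%, and Tnni2, the fast form, at 5.79, 5.28 and 5.19 CPM and at 1.49, 0.962 and 1.2 CPM, or 22.4%. Per kb, Tnni1 made up 48% ± 1.31 of troponin I in Control and 54.5% ± 9.18 in Hdac4-knockdown, a difference smaller than the SD in Hdac4-knockdown. Tnni3, the cardiac form, was counted 10, 5 and 8 times in Control and 0, 2 and 1 times in Hdac4-knockdown and was not tested. Tnnc1, the calcium-binding subunit of slow muscle and heart, was at 19.3, 17.2 and 17.2 CPM and at 4.91, 4.84 and 5.32 CPM, or 28%. Tnnc2, the fast form, had 0 counts in every library. Of its 800 exon bases 592 (74%) are shared with Ube2c, and reads that fall on both genes are assigned to neither, so this 0 says little about Tnnc2. Neb, the ruler of the thin filament, was at 11.7, 12.3 and 12.4 CPM and at 6.14, 4.9 and 4.25 CPM, or 42.1%, a log2 fold change of -1.25 (SE 0.12).

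Troponin genes lie in pairs in the genome. Tnni1 and Tnnt2 are 25.4 kb apart on chromosome 1, Tnni2 and Tnnt3 54.4 kb apart on chromosome 7, and Tnnt1 and Tnni3 1.9 kb apart on chromosome 7. Within the first pair the genes stood at 28.8% and 50.7% of Control, and within the second at 22.4% and 19.5%.

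**Figure D2:**
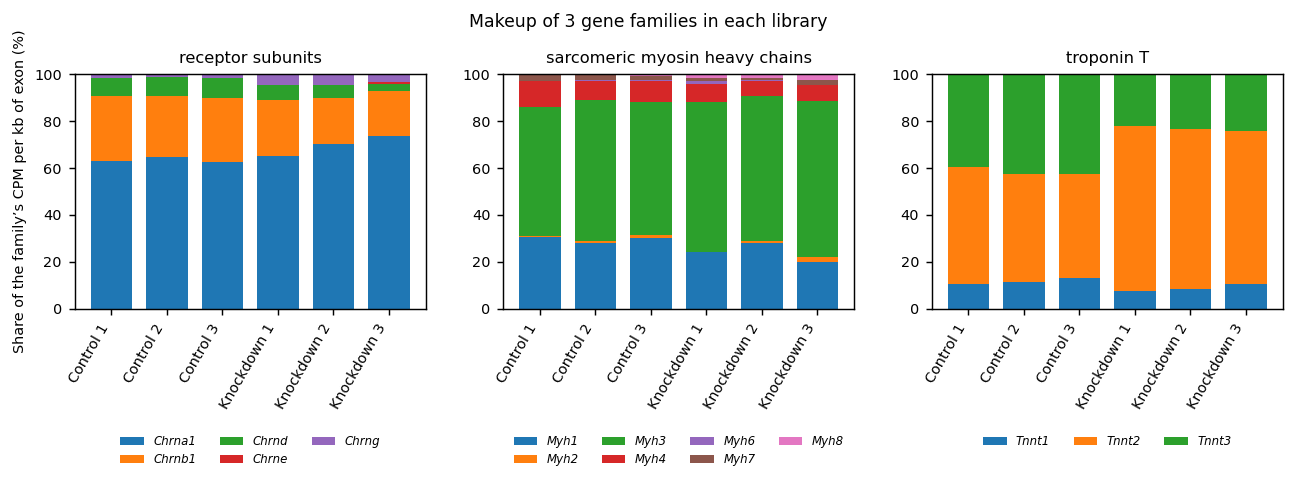
Share (%) of each gene in the summed CPM per kb of exon of its family, in each of the 3 Control and 3 Hdac4-knockdown libraries, for the receptor subunits, the sarcomeric myosin heavy chains and troponin T. Chrna1 and Myh3 lead their families in every library, and Tnnt2 takes 46.7% of troponin T on average in Control and 68% in Hdac4-knockdown.

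Of the 8 genes of Z-disc, M-line and titin, 5 were tested and all 5 fell, with a median log2 fold change of -1.88. Ttn, the giant spring protein, was at 32.4, 32.2 and 27.6 CPM in Control and at 9.4, 8.22 and 7.44 CPM in Hdac4-knockdown, or 27.2%. Actn3, the alpha-actinin of fast fibres, was at 26.7, 27.5 and 27.4 CPM and at 3.43, 3.48 and 2.56 CPM, or 11.6%, a log2 fold change of -3.10 (SE 0.103). Ldb3, a Z-disc protein that binds alpha-actinin, was at 17.1, 18.6 and 21.2 CPM and at 3.81, 3.72 and 3.42 CPM, or 19.3%. These 3 genes stood well apart between the groups.

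Myom1 and Myom2 encode proteins of the M-line, where thick filaments are joined. Myom2 was at 7.95, 9.49 and 7.16 CPM in Control and at 3.72, 2.02 and 1.96 CPM in Hdac4-knockdown, or 31.3%, with Hdac4-knockdown replicate 1 above the other 2. Without that library its log2 fold change was -2.03 in place of -1.68. Myom1 was at 2.39, 2.54 and 2.84 CPM and at 1.65, 1.86 and 1.73 CPM, or 67.4%, and its log2 fold change of -0.57 (SE 0.196) was the smallest of the fallen genes. Actn2, an alpha-actinin of heart and skeletal muscle, was counted 10, 6 and 3 times in Control and 4, 1 and 4 times in Hdac4-knockdown. Tcap, which caps titin at the Z-disc, was counted 9, 2 and 8 times and 3, 4 and 5 times, and Csrp3, a Z-disc LIM protein, 18, 23 and 8 times and 8, 7 and 7 times. These 3 genes were not tested, and Actn3 rather than Actn2 carried the striated alpha-actinin counts in both groups.

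Creatine kinase, which buffers ATP, is made as a brain form and a muscle form. Ckb, the brain form, was at 29, 30.7 and 29.9 CPM in Control and at 1.16, 1.43 and 1.5 CPM in Hdac4-knockdown, or 4.56%, and its log2 fold change of -4.45 (SE 0.109) was the furthest from 0 of the 32 tested genes. Ckm, the muscle form, was counted 50, 43 and 26 times in Control and 14, 10 and 9 times in Hdac4-knockdown, or 26.6%. Of the exon bases of Ckm, 15.5% are shared with another annotated gene.

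Calcium release and the membrane gave a divided picture. Ryr1, the calcium release channel of skeletal muscle, was at 13.7, 14.3 and 13.3 CPM in Control and at 3.33, 2.95 and 2.69 CPM in Hdac4-knockdown, or 21.7%. Casq2, the calcium store protein of heart and slow fibres, was at 7.23, 7.85 and 8.31 CPM and at 1.39, 2.36 and 1.73 CPM, or 23.4%. Both genes fell. Sgca, the alpha-sarcoglycan of the dystrophin complex, was at 2.29, 2.07 and 1.86 CPM in Control and at 2.78, 2.67 and 2.29 CPM in Hdac4-knockdown, or 124%, so the highest Control library and the lowest Hdac4-knockdown library were alike to the digits shown, and with a log2 fold change of 0.31 (SE 0.191) it was not called. Hspb7, a small heat shock protein of muscle, was counted 16, 5 and 8 times and 12, 18 and 15 times, with overlapping groups, and was not called (log2 fold change 0.56, SE 0.449). Cav3, the caveolin of muscle, was counted 4, 3 and 5 times and 4, 0 and 2 times and was not tested.

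**Figure D3:**
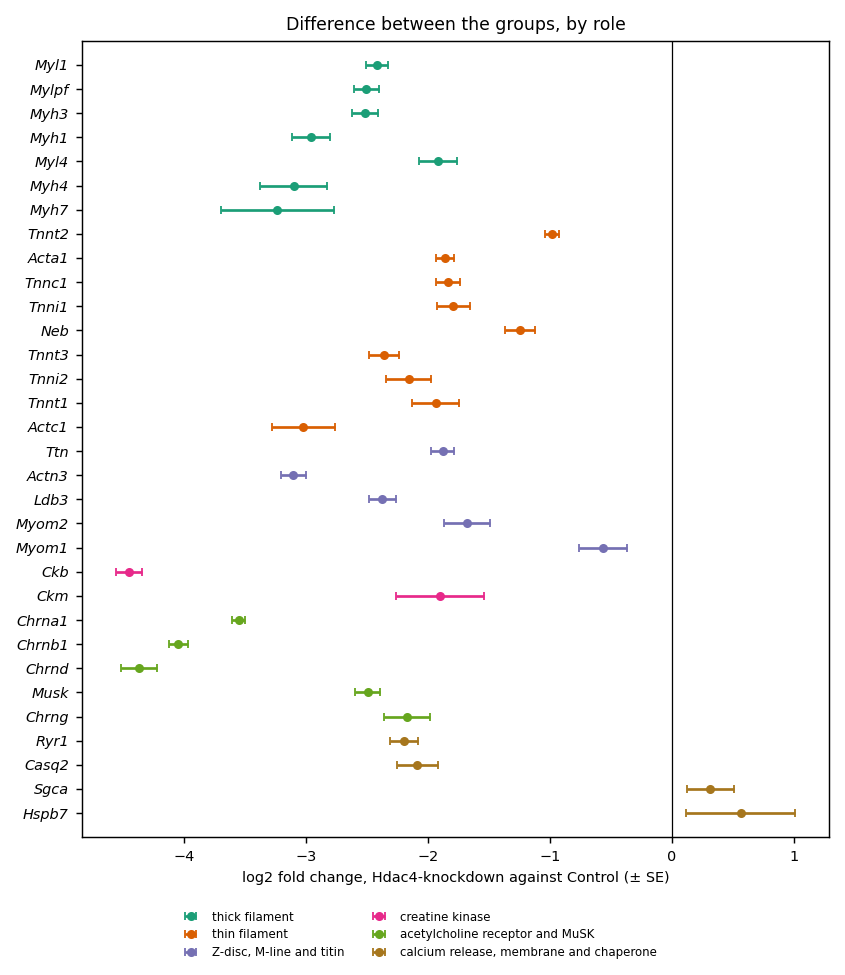
The log2 fold change (Hdac4-knockdown against Control) of each of the 32 tested genes, coloured by role, with bars of 1 SE on either side. The points run from -4.45 for Ckb to 0.56 for Hspb7, the receptor subunits Chrna1, Chrnb1 and Chrnd and Ckb lie furthest to the left, and Sgca and Hspb7 are the points to the right of 0.

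Set side by side per kb of exon, Chrna1 led the list in Control at 52.8 ± 1.18 CPM per kb (SD, n = 3), followed by Acta1 at 42.3 ± 1.31, Mylpf at 25.4 ± 1.61, Chrnb1 at 22.4 ± 0.55, Tnnc1 at 17.2 ± 1.19 and Myl1 at 13.4 ± 0.742 CPM per kb. Neighbours in this order were further apart than their SDs. In Hdac4-knockdown Acta1 led at 11.6 ± 1.52 CPM per kb, followed by Tnnc1 at 4.82 ± 0.246, Chrna1 at 4.5 ± 0.385, Mylpf at 4.47 ± 0.765 and Tnnt2 at 4.34 ± 0.0176 CPM per kb, and from Tnnc1 on, neighbours in the order did not differ beyond their SDs. The order depends on the length used, since with the longest transcript Myl1 passed Tnnc1 in Control (25.7 against 24.8 CPM per kb) and Tnnt2 passed Tnnc1 in Hdac4-knockdown (10.1 against 6.97 CPM per kb).

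Sarcomeric genes were a small part of their protein families in both groups. Of all counts on myosin heavy chain genes of the sarcomere, of smooth muscle and of non-muscle cells, the sarcomeric genes took 1.47% ± 0.0973 (SD, n = 3) in Control and 0.235% ± 0.0182 in Hdac4-knockdown. The striated share of actin counts, with smooth muscle and non-muscle actins in the total, was 1.12% ± 0.0453 and 0.534% ± 0.0534. That of alpha-actinin counts was 2.2% ± 0.0436 and 0.319% ± 0.047. Myh9, the main non-muscle heavy chain, was at 2043 ± 94.9 CPM in Control and 2045 ± 42.4 CPM in Hdac4-knockdown and was not called. Of 13 non-muscle counterparts, 12 were tested, with 8 called lower, 2 higher and a median log2 fold change of -0.34. The shares called among all genes tested were 37.1% lower and 38% higher. Actb and Actg1, the cytoplasmic actins, fell to 54% and 60% of Control, and Actn4, a non-muscle alpha-actinin, to 76.2%. Csrp1, a LIM protein of the cytoskeleton, fell to 48.3%. Myl6, a non-muscle light chain, rose to 112%, and Myl9, the regulatory light chain of smooth muscle and non-muscle cells, to 354%.

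Other genes of the same structures were taken as 94 further genes of sarcomere, excitation, membrane complex and energy supply. Of these 74 were tested, 52 were called lower, 14 higher and 8 neither, with a median log2 fold change of -1.05, beside 37.1% lower and 38% higher among all genes tested. These lists too were drawn up with earlier results of the data known.

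Among 42 other sarcomere genes 31 were tested, with 27 lower and 1 higher (median log2 fold change -2.03). Des, the intermediate filament of muscle, fell from 737 ± 18.5 to 102 ± 8.39 CPM (SD, n = 3), to 13.8%. Ankrd1, a titin-binding stress protein, fell from 533 ± 7.76 to 50.5 ± 2.82 CPM, to 9.48%. Xirp1, an actin-binding repeat protein, fell to 5.5%, and Trim54, a ubiquitin ligase of the sarcomere of which 26.6% of exon bases are shared with another gene, to 5.64%. Tpm3, a tropomyosin of slow muscle and many other cells, fell from 688 ± 16.8 to 647 ± 20.8 CPM, only to 94.1%. The gene called higher was Flnc, the filamin of muscle, at 396 ± 14.9 and 514 ± 22.8 CPM.

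Among 25 other excitation genes 20 were tested, with 16 lower and 3 higher (median -1.20). Rapsn, which anchors the acetylcholine receptor, fell from 27.5 ± 0.162 to 6.64 ± 0.394 CPM, to 24.2%, and Dok7, the activator of MuSK, to 11.8%. Cacng1 and Cacna2d1, subunits of the voltage-gated calcium channel, fell to 28.2% and 66.8%. Jph2, a junctophilin that joins the surface membrane to the calcium store, rose from 57.2 ± 1.93 to 85.3 ± 5.18 CPM. Ache, the enzyme that breaks down acetylcholine, was counted 7, 4 and 4 times in Control and 30, 22 and 33 times in Hdac4-knockdown, and rose.

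The 14 genes of the membrane complex were all tested, with 6 lower and 6 higher (median 0.04). Itga7, the laminin receptor of muscle, fell from 520 ± 5.59 to 57 ± 2.97 CPM, to 10.9%, and Lama2, a laminin chain, from 96.5 ± 1.49 to 30.1 ± 2.07 CPM, to 31.2%. Dag1, dystroglycan, and Sgcb, beta-sarcoglycan, fell to 84.8% and 87.1%. Dmd, dystrophin, rose from 0.311 ± 0.151 to 17.6 ± 2.23 CPM, with 13, 11 and 4 counts in Control and 603, 489 and 550 in Hdac4-knockdown, a log2 fold change of 5.79 (SE 0.202).

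Of 13 energy genes 9 were tested, with 3 lower and 4 higher (median -0.09). Eno3, the muscle enolase, fell from 400 ± 6.61 to 84.2 ± 3.24 CPM, to 21.1%, Mb, myoglobin, of which 31.9% of exon bases are shared with other genes, to 26.5%, and Phka1, a phosphorylase kinase subunit, to 80.2%. Pfkm, the muscle phosphofructokinase, rose to 124% and Pgam2, the muscle phosphoglycerate mutase, to 202%.

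**Figure D4:**
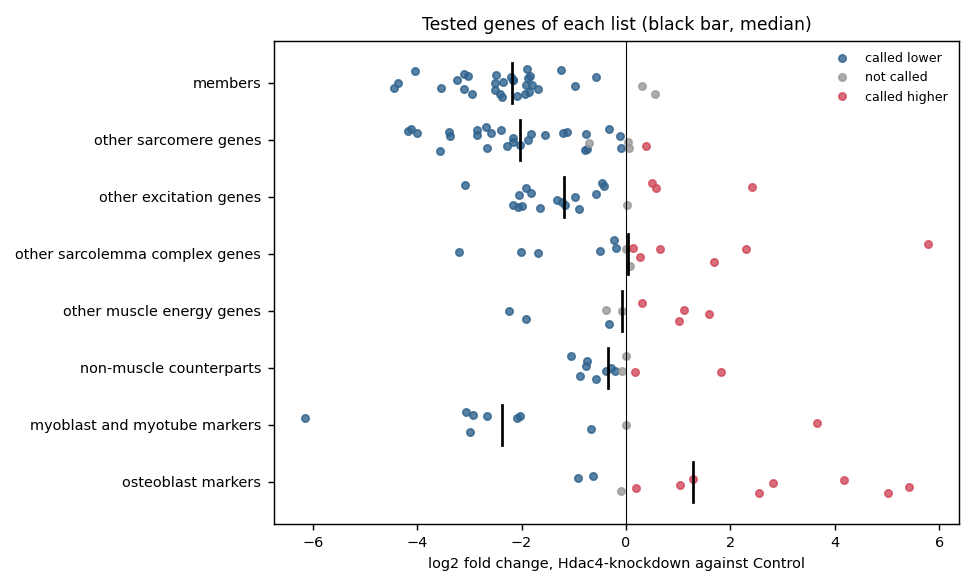
The log2 fold change (Hdac4-knockdown against Control) of the tested genes of 8 lists, 1 point per gene, coloured by call, with a black bar at each list's median; points are spread vertically for legibility. The 45 listed genes (members, 32 tested) and the other sarcomere genes have medians of -2.19 and -2.03, the membrane complex genes 0.04 and the osteoblast markers 1.29.

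The regulators named in the background moved in different directions. Besides Hdac4, the class IIa gene Hdac9 fell from 16.8 ± 0.441 to 2.07 ± 0.184 CPM (SD, n = 3), to 12.3%, Hdac5 fell to 90.7% and Hdac7 rose to 158%. Mef2c was at 16.2 ± 1.01 CPM in Control and 16.8 ± 1.55 CPM in Hdac4-knockdown and was not called. Mef2a and Mef2d rose to 112% and 121%, with overlapping groups for Mef2a. Myog, the MyoD family factor of differentiating myoblasts, fell from 16.8 ± 0.475 to 3.94 ± 0.932 CPM, to 23.5%, and Mymk, the fusion protein Myomaker, to 24.4%. The part of the myogenic factors in the fall of the muscle genes was not tested.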

How the data were processed

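RNA from 3 Control and 3 Hdac4-knockdown samples of MC3T3-E1 cells was sequenced after poly-A selection with a kit that does not mark strand. The authors deposited raw read counts per Ensembl gene for each library. FastQC, STAR 2.7.3a, HTSeq 0.12.4 and mm10 are named in the submitters' processing notes, and the annotation is not given in the sources used here. Summary lines for reads outside genes, on several genes or aligned to several places (14.3 to 15% of each table) were left out. The labels describe independent RNA samples, so p-values measure the spread between these samples. Pairs of samples of a group differed by more than the sampling noise (chi-square per degree of freedom 3.38 to 9.15).

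Of 53801 gene identifiers, 53620 matched a symbol, and lengths and overlaps came from GENCODE M21. The test was edgeR's (version 4.0.16, R 4.3.3), with TMM scaling, filterByExpr and the quasi-likelihood F test (Benjamini-Hochberg adjustment over 14531 genes). On simulated data with 200 planted changes, 196 of them in tested genes, the test recovered 97.4% of these, and 7 of 198 calls were false. Only these 200 genes were changed there, whereas 75.1% of the genes tested were called in the data. The simulation therefore does not give the rate of false calls in the data. The members and the lists were chosen with earlier results of these data known. All 45 members were named, and from each of the 4 lists of other striated muscle genes and the non-muscle counterparts the 4 called genes with the highest mean level and the 2 with the largest fold change (at least 10 counts on average), besides markers of the other lists, which were named without a rule. Alternatives were other scalings (DESeq2 size factors, library size alone, upper quartile), other filters, DESeq2 1.42.0, limma-voom (limma 3.58.1), a replicate block, fold change limits of 0.5 and 1, and fits without each library in turn.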

Additional observations from a re-analysis of the deposited data

How the results depend on the processing

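Each of the 32 tested members kept its call and its direction under every other scaling, filter and tool, the replicate block and the fits without a library, wherever these could test it (445 values in all, 0 changed). With a log2 fold change limit of 0.5, 30 members were called lower, and with a limit of 1, 28, since Tnnt2 and Myom1 lost their call. None was called higher under any of these alternatives, and of those called lower 30 and 31 were the lowest and highest counts when single libraries were left out. Without any filter beyond 1 count, 43 members were tested and 33 called lower, with Myh2, Tnni3 and Csrp3 added to the 30. With at least 10 counts in every library, 29 were tested and 28 called lower. These filters kept 28015 and 12487 genes in all. The share of all genes called was worked out for the main fit alone, so nothing is read from the counts of members under the alternatives. A log2 fold change beyond 0.5 left 9 of the 14 other striated muscle genes called higher, 5 of the 8 non-muscle counterparts called lower and 1 of the 2 called higher, and one beyond 1 left 7, 1 and 1. The labels do not say that replicate numbers pair the samples. Correlations of deviations between same-numbered libraries were -0.00523, 0.0956 and 0.0206, so no shared deviation was seen, but these values cannot show how the samples were handled. With a replicate block, 30 members were called lower, and of the other striated muscle genes 51 were lower and 14 higher. Upper quartile scaling moved the median log2 fold change of all genes from 0.014 to 0.103. Levels per kb of 23 of the 32 members moved by more than 1 SD when the longest transcript replaced the summed exon length. Low counts kept 13 members out of the test. Groups of 3 libraries were too small to look for outlying samples.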

Other observations

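Cardiac and smooth muscle genes were also measured. Of 8 cardiac markers 3 were tested and all 3 fell, where 37.1% of all genes tested were called lower. Gata4, a transcription factor of heart and endoderm, fell from 37.6 ± 0.885 to 7.92 ± 0.985 CPM (SD, n = 3), and Nkx2-5, a transcription factor of the heart, from 8.67 ± 1.46 to 1.13 ± 0.265 CPM. Nppb, a natriuretic peptide, fell to 52% of Control. Tbx5 and Hand2, which define heart fields, had 0 counts in every library, and Tbx20 at most 1. The summed level of the 8 genes was 46.2 to 50.6 CPM in Control libraries and 9.19 to 11.3 CPM in Hdac4-knockdown libraries.

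Of 10 smooth muscle markers 6 were tested, with 3 lower and 3 higher, beside 37.1% lower and 38% higher among all genes tested. Acta2, the smooth muscle actin that myoblasts also make, fell from 312 ± 1.79 to 148 ± 10.7 CPM. Lmod1, an actin nucleator, rose from 0.389 ± 0.189 to 6.62 ± 0.983 CPM and Mylk, the myosin light chain kinase, from 4.39 ± 0.212 to 22.4 ± 0.625 CPM. Myocd, the main smooth muscle coactivator, had 0 counts in every library, and Cnn1, calponin, at most 4. The summed level of the 10 genes was 420 to 422 CPM in Control libraries and 245 to 269 CPM in Hdac4-knockdown libraries.

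Of 15 osteoblast markers 11 were tested, with 8 higher and 2 lower, beside 38% higher and 37.1% lower among all genes tested. Together the 15 genes summed to 5725 to 5769 CPM in Control libraries and 23400 to 24290 CPM in Hdac4-knockdown libraries. Dlx5, a transcription factor of osteoblasts, was counted 4, 8 and 5 times in Control and 227, 266 and 282 times in Hdac4-knockdown. Runx2 rose to 114%, with overlapping groups, and Spp1, osteopontin, fell to 64.9%.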
